A study of Mus musculus with 4 samples.

Results

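The clustered protocadherins are cell adhesion receptors encoded by 3 neighbouring gene clusters, alpha, beta and gamma, on mouse chromosome 18. Their members were taken by position and name, as genes that GENCODE version M1 (build mm9) lists as protein-coding on this chromosome under names beginning with Pcdha, Pcdhb or Pcdhg. The annotation lists 24 such genes and joins most alpha and gamma exons under shared genes, so each variable exon with a transcription start site (TSS) of its own was counted. This gave 40 TSSs, of which 10 lie in the alpha, 21 in the beta and 9 in the gamma cluster. The set called all protein-coding TSSs below holds 22367, 1 per annotated gene, so the 40 are not a subset of it. The rule used name and position. With 1 TSS per annotated gene in its place, 24 TSSs remain, of which 2 are alpha and 1 is gamma.

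Each variable exon of these clusters has its own promoter and encodes the extracellular cadherin repeats, the transmembrane segment and the start of the cytoplasmic part of 1 protein. In the alpha and gamma clusters the variable exons are spliced to 3 shared constant exons, which encode a common cytoplasmic end, whereas each beta gene stands alone in a single coding exon. Single neurons are known to use a few of these promoters each, while the C-type members (Pcdhac1, Pcdhac2, Pcdhgc3, Pcdhgc4 and Pcdhgc5) are used by most neurons. Acetylation of H3K9 and H3K14 is a mark of open promoters and enhancers.

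The data are ChIP-seq of mouse embryonic stem (mES) cells with no treatment, in 4 libraries. H3K9ac was precipitated with the polyclonal antibody AB4441, H3K14ac with the mouse monoclonal antibody 13HH3 and, in a further library, with the mouse monoclonal 7G8, and input DNA was taken without an antibody. The labels of all 4 libraries name the E14 line and the strain 129P2/OlaHsd, while the methods describe wild type ES cells taken from blastocysts, grown on feeder cells and then passaged without them. With a single library for every antibody nothing was replicated, and the 95% intervals below are exact and cover counting error only. After 1 tag was kept per position and strand, the libraries held 23181544 (H3K9ac), 21626227 (13HH3), 23837354 (7G8) and 19313142 (input) tags. Levels are log2 ratios over input of tags per 10000000 tags of the library. Scaling by tags outside enriched bins would add 0.36 to all H3K9ac, 0.15 to all 13HH3 and 0.12 to all 7G8 ratios, and scaling by the tags of chromosome 18 would add -0.05, -0.17 and -0.19. Differences between clusters do not depend on the scaling.

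Of the 8 markers of ES cells, 7 were past 2-fold for H3K9ac, led by Zfp42 (log2 4.70, a pluripotency-linked zinc finger gene), and of all protein-coding TSSs 57.6% were. Of 6 fibroblast markers, which feeder cells would carry, 2 were past 2-fold, Col1a1 at 1.31 and Thy1 at 1.07, and Col3a1 was at -0.49. Of the 5 neuronal markers found, 3 were past 2-fold, Syn1 at 2.40, Stmn2 at 2.24 and Tubb3 at 1.29, while Snap25 was at 0.49 and Rbfox3 below input at -1.19 (-2.27 to -0.41). The part of other cells in the protocadherin values was not tested.

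H3K9ac at the protocadherin TSSs was highest in the gamma cluster, lower in the alpha cluster and close to input at most beta genes. Within 1 kb of the TSS, the 9 gamma TSSs together held 621 H3K9ac tags against 163 input tags, a pooled log2 ratio of 1.67 (95% interval 1.42 to 1.92). The 10 alpha TSSs held 431 against 171 tags, a pooled ratio of 1.07 (0.81 to 1.33), and the 21 beta TSSs held 479 against 306, a ratio of 0.38 (0.17 to 0.59). As folds over input these are 3.17, 2.10 and 1.30. Of the 40 TSSs, 14 were past 2-fold (log2 of 1 or more, with 1 tag per 10000000 added to both sides), 8 gamma, 4 alpha and 2 beta. Among all protein-coding TSSs, 57.6% were past 2-fold, so the share among the protocadherins, not matched for CpG number, was lower. Only 4 of the 40 members are CpG-rich (defined below), against 42.0% of all TSSs. Of these 4, 3 were past 2-fold, against 94.7% of CpG-rich TSSs. Of the other 36, 11 were, against 30.7% of TSSs that are not CpG-rich. No member was at or under a log2 of -1, against 4.96% of all TSSs. The interval lay above 0 at 17 members (62% of all TSSs) and below 0 at none (4.91%).

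**Figure D1:**
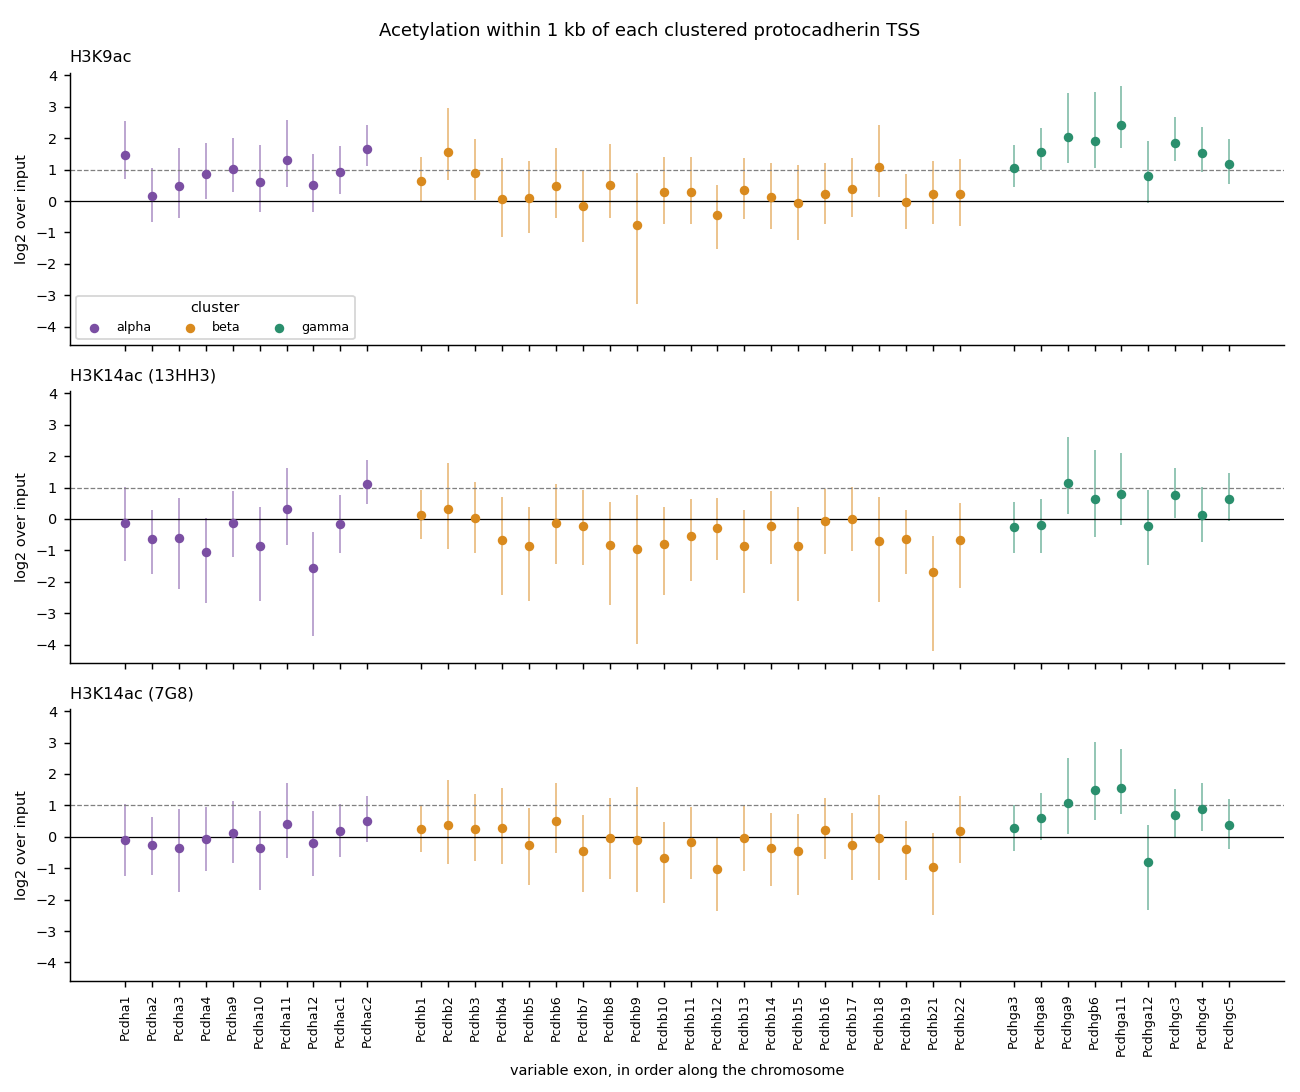
Log2 ratio over input within 1 kb of each of the 40 variable exon TSSs (x axis, in chromosomal order) for the 3 ChIP libraries; points are ratios with a pseudocount, bars exact 95% intervals, and the dashed line marks 2-fold. The 4 highest H3K9ac ratios are at gamma TSSs, the other gamma TSSs overlap alpha and beta ones, and most beta TSSs lie near 0. Pcdhac2 and Pcdhga9 are the TSSs past 2-fold for 13HH3.

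Pcdhga11, a gamma A-type member, had the highest H3K9ac ratio, with 81 H3K9ac, 23 13HH3, 44 7G8 and 11 input tags and a log2 of 2.42 (1.70 to 3.68). It was followed by Pcdhga9, with 51, 25, 26 and 9 tags in the same order, at 2.02 (1.20 to 3.45). Pcdhgb6, a B-type member, had 43, 15, 32 and 8 tags and stood at 1.93 (1.06 to 3.46). Pcdhgc3 had 101, 43, 45 and 22 tags and stood at 1.85 (1.26 to 2.67). The intervals of these 4 overlap, so their order is not resolved by these counts. Compared with all TSSs, Pcdhga11 was at percentile 75.9, Pcdhga9 at 65.3 and Pcdhgc3 at 60.9. Pcdhga12 was the gamma member under 2-fold, with 31 H3K9ac and 14 input tags (0.80, -0.07 to 1.91). Its annotated TSS lies 537 bp before the start codon, the longest such distance among the gamma members. It has 12 CpGs within 500 bp, the fewest of them (median 39). The part of this TSS placement in its ratios was not tested.

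The lowest H3K9ac ratios were all in the beta cluster. Pcdhb9 had 4 H3K9ac tags against 7 in input (log2 -0.76, -3.29 to 0.91), Pcdhb12 had 17 against 20 (-0.45, -1.52 to 0.51) and Pcdhb7 had 15 against 14 (-0.14, -1.32 to 1.00). The wide intervals hold 0 in each case, so neither enrichment nor depletion was detectable at this depth. The 2 beta genes past 2-fold were Pcdhb2, with 36 against 9 tags (1.55, 0.66 to 2.98), and Pcdhb18, with 28 against 10 (1.08, 0.14 to 2.43); Pcdhb18 was named after its value was seen. Pcdhb1, which lies first in the beta cluster, had 52, 33, 40 and 27 tags and an H3K9ac ratio of 0.65 (-0.02 to 1.41). Input tags within the window ran from 7 to 27 over the beta genes, 11 to 26 over the alpha and 8 to 28 over the gamma members.

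In the alpha cluster the H3K9ac ratio ran from 0.17 at Pcdha2 (30 against 22 tags) to 1.67 at Pcdhac2 (104 against 26). Between them lay Pcdha1 at 1.45 (50 against 14 tags), Pcdha11 at 1.30 (36 against 11) and Pcdha9 at 1.03 (44 against 17), which are the further alpha members past 2-fold and were named after their values were seen. Of the 10 alpha TSSs, 6 had an interval above 0, against 62% of all TSSs.

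H3K14ac was close to input at most members. With 13HH3, the pooled log2 ratio was 0.39 (0.10 to 0.69) at the gamma, -0.11 (-0.42 to 0.20) at the alpha and -0.47 (-0.72 to -0.23) at the beta TSSs. With 7G8 the same values were 0.74 (0.47 to 1.02), 0.05 (-0.24 to 0.35) and -0.13 (-0.36 to 0.09). The alpha values hold 0 and change sign with the scaling. The gamma 13HH3 ratio turned to -0.27 (-1.10 to 0.55) with the most 5′ start of the 1 annotated gamma gene in place of the 9 exons. With 13HH3, 2 of 40 TSSs were past 2-fold, against 22.3% of all TSSs, and with 7G8, 3 of 40, against 21%. The 13HH3 count falls to 0 when libraries are scaled by the tags of chromosome 18. With at least 10 input tags per window both counts fall to 1, and with 1 TSS per annotated gene they are 1 with 13HH3 and 0 with 7G8. At or under a log2 of -1 were 3 members with 13HH3 (2.94% of all TSSs) and 1 with 7G8 (2.54%). Intervals lay above 0 at 3 members with 13HH3 (31.4% of all TSSs) and 4 with 7G8 (29.1%), and below 0 at 2 (2.91%) and 1 (3.6%).

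The 2 TSSs past 2-fold with 13HH3 were Pcdhga9 (25 against 9 input tags, log2 1.15, 0.16 to 2.59) and Pcdhac2 (65 against 26, 1.10, 0.48 to 1.87). They were followed by Pcdhga11 at 0.80 (-0.19 to 2.09) and Pcdhgc3 at 0.75 (0.03 to 1.62). With 7G8 the members past 2-fold were Pcdhga11 at 1.54 (0.72 to 2.80), Pcdhgb6 at 1.49 (0.55 to 3.03) and Pcdhga9 at 1.07 (0.09 to 2.51), and Pcdhgc4 came next at 0.88 (0.19 to 1.73, 52 against 22 tags). Pcdhga9 was thus past 2-fold in all 3 ChIP libraries, which share 1 input count of 9 tags. Its 3 ratios therefore move together with that count.

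At the low end with 13HH3 stood Pcdhb21 (4 against 16 tags, log2 -1.70, -4.20 to -0.53), Pcdha12 (5 against 17, -1.57, -3.72 to -0.43) and Pcdha4 (8 against 17, -1.06, -2.67 to 0.04). H3K9ac at these TSSs was 0.23, 0.51 and 0.86. The lowest with 7G8 were Pcdhb12 (11 against 20, -1.02, -2.37 to -0.04), Pcdhb21 (9 against 16, -0.96, -2.49 to 0.13) and Pcdhga12 (9 against 14, -0.79, -2.33 to 0.37). The ratios of Pcdhb21 with both antibodies rest on the same 16 input tags.

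Over the 40 TSSs the pooled H3K9ac ratios differed between the clusters beyond counting error. Gamma exceeded alpha by 0.60 in log2 (0.23 to 0.96), alpha exceeded beta by 0.69 (0.35 to 1.03), and gamma exceeded beta by 1.28 (0.95 to 1.62). The order of gamma and alpha turned with 1 TSS per annotated gene, where the 2 alpha TSSs stood at 1.45 (0.92 to 2.02) and the single gamma TSS at 1.20 (0.52 to 1.92), a gamma minus alpha difference of -0.25 (-1.15 to 0.66) that holds 0. With the most 5′ start of the annotated gene this difference was -0.09 (-1.06 to 0.89). So few TSSs do not resolve the order, and at the TSSs that of gamma above alpha rests on counting each variable exon. Over the whole domains, where no exon is counted, H3K9ac was at 1.24 (1.15 to 1.32) for gamma and 0.06 (-0.03 to 0.16) for alpha. The single TSSs overlap, with 5 of 9 gamma members above the highest beta gene and 18 of 21 beta genes below the lowest gamma member. Against alpha, 4 of 9 gamma members were above the highest alpha member, and 4 of 10 alpha members were below the lowest gamma member. With 13HH3, gamma exceeded alpha by 0.50 (0.07 to 0.94) and beta by 0.86 (0.47 to 1.25), and with 7G8 by 0.69 (0.28 to 1.10) and 0.88 (0.52 to 1.24). With 1 TSS per annotated gene the gamma minus alpha difference turned to -0.16 (-1.13 to 0.83) with 13HH3 and was 0.14 (-0.86 to 1.14) with 7G8, and with the most 5′ start it was 0.13 (-1.09 to 1.36) and 0.53 (-0.60 to 1.66), all holding 0. The difference of alpha and beta held 0 with both H3K14ac antibodies, at 0.36 (-0.04 to 0.76) with 13HH3 and 0.19 (-0.19 to 0.56) with 7G8. TSSs of 1 cluster are similar in sequence and come from 1 library, so these intervals leave out variation between libraries.

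The 5 C-type TSSs, the last of the alpha and gamma clusters, had a pooled H3K9ac ratio of 1.54 (1.24 to 1.85), a 13HH3 ratio of 0.62 (0.29 to 0.97) and a 7G8 ratio of 0.58 (0.25 to 0.92). Pcdhac1 had 52, 22, 31 and 22 tags and Pcdhac2 104, 65, 47 and 26, in the order H3K9ac, 13HH3, 7G8 and input. Pcdhgc4 had 81, 27, 52 and 22 tags, and Pcdhgc5 had 68, 43, 39 and 24. Their H3K9ac ratios were 0.92 at Pcdhac1, 1.67 at Pcdhac2, 1.85 at Pcdhgc3, 1.54 at Pcdhgc4 and 1.18 at Pcdhgc5, all with intervals above 0.

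Without the C-type members the gamma cluster kept its H3K9ac ratio (1.70, 1.37 to 2.04), and the alpha cluster stood at 0.90 (0.59 to 1.22). The 6 remaining gamma TSSs had a 13HH3 ratio of 0.24 (-0.15 to 0.64), which holds 0, and a 7G8 ratio of 0.78 (0.42 to 1.15). The 8 remaining alpha TSSs had a 13HH3 ratio of -0.61 (-1.02 to -0.21), below input, while the whole alpha cluster was at -0.11. With 7G8 these 8 TSSs stood at -0.11 (-0.47 to 0.25), which holds 0. Their 13HH3 ratio was -1.55 (-2.35 to -0.80) in the 1 kb upstream, on 21 against 55 tags. In the 1 kb downstream it was -0.14 (-0.65 to 0.36), which holds 0. The difference of these 8 TSSs from beta with 13HH3 was -0.14 (-0.62 to 0.34). The H3K9ac ratio of these same 8 TSSs exceeded that of the beta genes by 0.51 (0.13 to 0.90).

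Around the TSS, H3K9ac in the alpha and gamma clusters formed a peak in the first 500 bp of the exon. In this bin the pooled log2 ratio was 2.13 (1.60 to 2.70) for alpha, 2.67 (2.19 to 3.18) for gamma and 0.80 (0.44 to 1.17) for beta. In the 500 bp upstream of the TSS it was 1.32 for alpha, 1.59 for gamma and 0.41 for beta. The alpha ratio was back at 0.07 from 500 to 1000 bp downstream, whereas gamma was at 1.21 there and stayed between 0.86 and 1.46 out to 3 kb. All 10 alpha TSSs, and 13 of the 40, are annotated at the start codon with no 5′ untranslated part, so their true starts may lie upstream of the point used.

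H3K14ac showed the same position of the peak at a lower level. In the first 500 bp, 13HH3 reached 0.97 (0.38 to 1.59) for alpha, 1.01 (0.45 to 1.58) for gamma and -0.18 (-0.61 to 0.25) for beta. With 7G8 the same bin held 0.63 (0.02 to 1.27), 1.28 (0.75 to 1.84) and 0.12 (-0.28 to 0.51). For alpha, the interval of this bin lay above 0 with both antibodies, but held 0 with both once the C-type members were left out. Pcdhac1 and Pcdhac2 together held 34 13HH3, 30 7G8 and 9 input tags there, ratios of 1.75 (0.66 to 3.00) and 1.43 (0.32 to 2.69). The other 8 alpha TSSs held 43, 37 and 26 tags, ratios of 0.56 (-0.17 to 1.32) and 0.21 (-0.56 to 0.99) that hold 0, while their H3K9ac ratio in this bin was 1.91 (1.28 to 2.58). With both antibodies the intervals of the C-type and the other alpha TSSs overlap, and their difference in this bin was not tested.

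**Figure D2:**
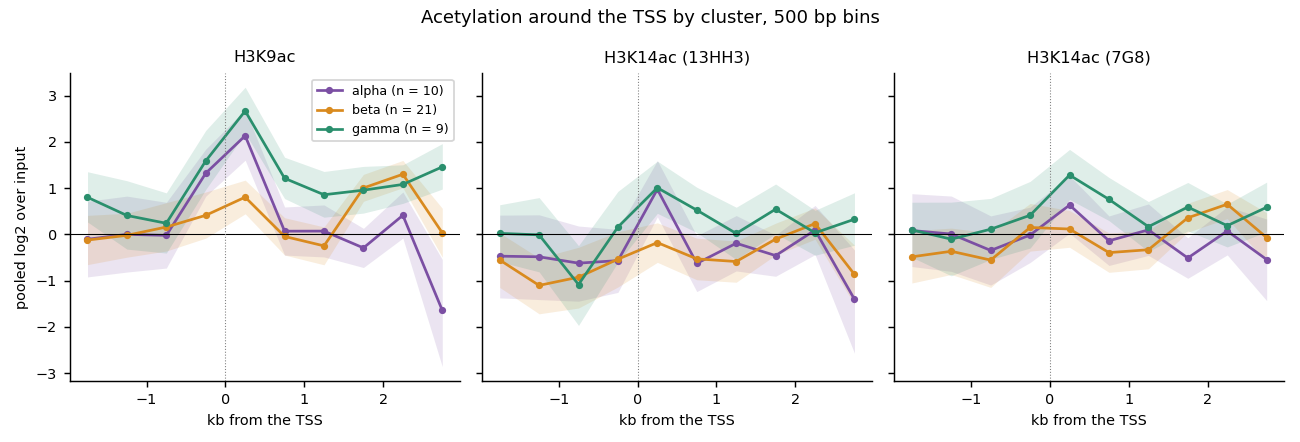
Pooled log2 ratio over input in 500 bp bins from 2 kb upstream to 3 kb downstream of the TSS (x axis, kb) for the alpha, beta and gamma members; shading marks exact 95% intervals. Alpha and gamma peak in the first 500 bp downstream for H3K9ac, and beta has its highest bins from 1.5 to 2.5 kb downstream in all 3 libraries.

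The signal was uneven between the sides of the gamma TSSs. The 1 kb downstream had an H3K9ac ratio of 1.98 and the 1 kb upstream 0.98, a difference of 0.99 (0.44 to 1.54). The difference was 1.14 (0.48 to 1.81) with 13HH3 and 0.74 (0.14 to 1.34) with 7G8. Without the C-type members it was 1.87 (1.09 to 2.64) for H3K9ac, with 318 tags downstream against 53 upstream, while input held 59 and 36. At the 3 gamma C-type TSSs it was 0.09 (-0.75 to 0.93), with 151 tags downstream against 99 upstream (input 40 and 28) and the interval holding 0. At Pcdhga8 82 H3K9ac tags lay downstream and 11 upstream (input 18 and 7), and at Pcdhga11 69 and 12 (input 8 and 3), whereas Pcdhgc4 had 44 and 37 (input 12 and 10). Pcdhga8 was named after its value was seen. For beta the difference held 0 in all 3 libraries, and for alpha it held 0 with H3K9ac (0.31, -0.23 to 0.85) and 7G8 but not with 13HH3 (0.78, 0.12 to 1.44).

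In the beta cluster the profile was highest near the end of the coding sequence, which lies 2316 to 2627 bp past the TSS. Except at Pcdhb1, Pcdhb6 and Pcdhb8, the annotated exon goes on as a 3′ untranslated part, past 3 kb in 15 of the 21 genes. From 1.5 to 2 kb downstream of the TSS the 21 beta genes held 339 H3K9ac tags against 141 input tags (log2 1.00, 0.71 to 1.30), and from 2 to 2.5 kb 384 against 130 (1.30, 1.01 to 1.60). The first 500 bp stood at 0.80, and its interval overlaps both. From 2.5 to 3 kb, mostly past the coding sequence, the ratio was 0.03 (-0.49 to 0.56).

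After this profile was seen, tags were counted in the last 1 kb of the coding part of each variable exon. These counts hold many of the same tags as the profile and describe it gene by gene, so they are no independent support for it. The beta coding ends held 724 H3K9ac, 317 13HH3, 477 7G8 and 275 input tags. For H3K9ac the pooled ratio was 1.13 (0.93 to 1.34), for 13HH3 0.04 (-0.20 to 0.28) and for 7G8 0.49 (0.27 to 0.71). The 1 kb just downstream of the TSS, a window of equal length that shares no base with the coding end, stood lower by 0.70 (0.36 to 1.03) for H3K9ac and 0.61 (0.25 to 0.97) for 7G8. With 13HH3 it was lower by 0.39, and the interval reached 0 (-0.0022 to 0.78). Against the whole TSS window, which is upstream sequence on 1 side, the differences were 0.75, 0.51 and 0.63. The ratio was higher at the end than at the TSS in 18 of 21 genes for H3K9ac, 18 for 13HH3 and 17 for 7G8. Past 2-fold for H3K9ac were 10 of the 21 beta coding ends, 1 of 10 alpha and 2 of 9 gamma ones. Of 1 kb bins of the genome 8.65% were. Those bins are of any sequence, and no share over coding ends of other genes was computed.

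Pcdhb2 had the highest coding end, with 54 H3K9ac, 18 13HH3, 17 7G8 and 4 input tags and an H3K9ac ratio of 2.98, on few input tags. Among the beta genes Pcdhb4 followed with 33, 6, 16 and 6 tags (1.89) and Pcdhb22 with 44, 23, 29 and 10 tags (1.69). At their TSSs Pcdhb4 and Pcdhb22 stood at 0.07 and 0.22. The lowest beta coding end was that of Pcdhb9, with 30 H3K9ac and 26 input tags (-0.05), which also had the lowest TSS. These genes were named after their values were seen.

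In the alpha and gamma clusters the pooled H3K9ac ratio was lower at the coding end than at the TSS. With 13HH3 the differences, -0.21 (-0.67 to 0.25) for alpha and -0.12 (-0.58 to 0.34) for gamma, hold 0. With 7G8 those of -0.36 (-0.80 to 0.09) and -0.44 (-0.89 to 0.00068) hold 0 too. The coding end was above the TSS in 7 of 10 alpha and 4 of 9 gamma exons with 13HH3, and in 3 and 2 with 7G8. The alpha coding ends held 191 H3K9ac and 161 input tags, a ratio of -0.02 (-0.33 to 0.29), which is lower than at their TSSs by a difference of -1.09 (-1.50 to -0.68). The gamma coding ends stood at 1.14 (0.83 to 1.45), with a difference from the TSS of -0.53 (-0.93 to -0.12). The coding end was above the TSS in 1 of 10 alpha and 2 of 9 gamma exons for H3K9ac. The gamma exons are Pcdhga12, with 94 H3K9ac and 15 input tags (2.24, 1.59 to 3.28) against 0.80 at its TSS, the second highest coding end of all 40 exons, and Pcdhgc5 at 1.22 against 1.18. The alpha exon is Pcdha3, at 1.06 against 0.48. They were named after their values were seen. The median number of CpGs in the last 1 kb was 53 for alpha, 37 for beta and 33 for gamma. A median of 82.9% of the 36-base stretches of the beta coding ends, 80.1% of the alpha and 99.7% of the gamma ones occur once in the clusters, and the part of mappability in these values was not tested.

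**Figure D3:**
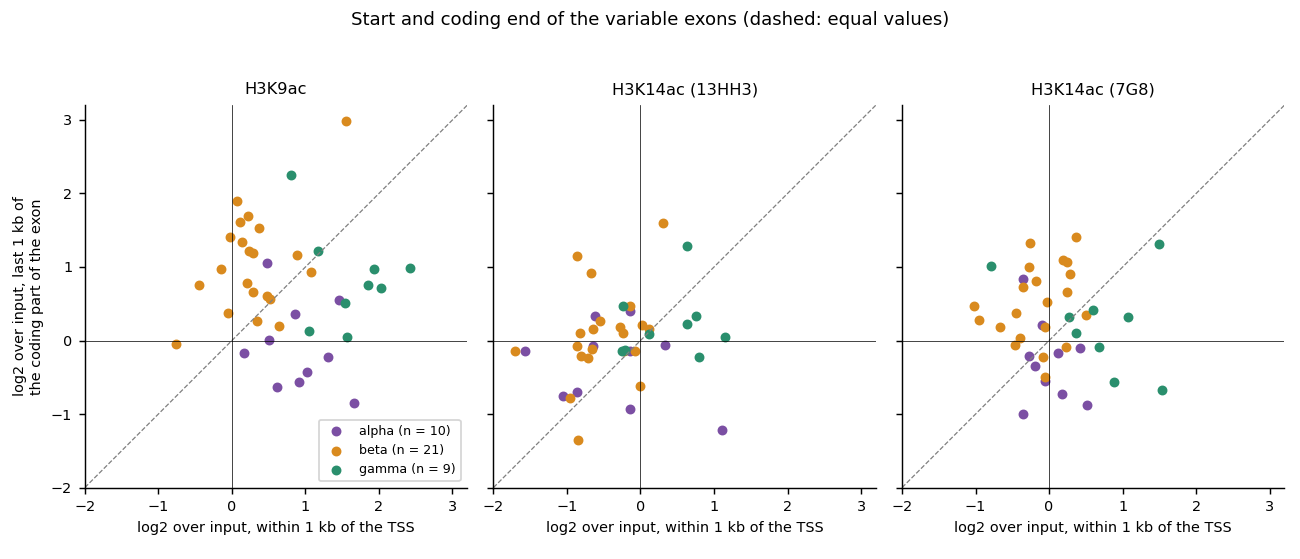
Log2 ratio over input in the last 1 kb of the coding part of the exon (y axis) against the ratio within 1 kb of the TSS (x axis), 1 point per variable exon, for the 3 ChIP libraries. For H3K9ac 18 of 21 beta points lie above the dashed line of equal values, and 9 of 10 alpha points lie below it.

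From the first to the last annotated base of each cluster, H3K9ac was spread through the gamma cluster and was close to input over most of the alpha and beta clusters. The gamma domain (chr18:37833989-38001527) held 3953 H3K9ac and 1399 input tags, a log2 ratio of 1.24 (1.15 to 1.32). The alpha domain (chr18:37089939-37347311) was at 0.06 (-0.03 to 0.16) and the beta domain (chr18:37424652-37681073) at 0.31 (0.21 to 0.40). With 13HH3 the gamma, alpha and beta domains were at 0.39 (0.29 to 0.49), -0.11 (-0.21 to -0.00) and -0.42 (-0.53 to -0.31), and with 7G8 at 0.47 (0.38 to 0.57), 0.05 (-0.05 to 0.15) and 0.05 (-0.05 to 0.15). The annotated gamma domain starts after Pcdhga1 and Pcdhga2, 2 of the 22 gamma exons. From the start of Pcdhga1 (chr18:37821599-38001527) the gamma ratios were 1.24 for H3K9ac, 0.38 for 13HH3 and 0.47 for 7G8. The gamma domain also had more input per kb, 4.32 tags per 10000000 against 3.03 in the other two.

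The annotation leaves out some variable exons, so 18 more were sought as open reading frames of at least 2000 bases and named by their distance to the cluster end in RefSeq. They are 4 alpha, 1 beta and 13 gamma exons. With the coding part of all variable exons and the 1 kb upstream of each set aside, the rest of the gamma domain had an H3K9ac ratio of 1.11 (0.99 to 1.24), while the rest of the alpha domain was at -0.25 (-0.38 to -0.12) and that of the beta domain at -0.12 (-0.26 to 0.02). Of all 1 kb bins of the domains, 71 of 167 gamma bins (42.5%) were past 2-fold for H3K9ac, 16 of 228 alpha bins (7.02%) and 25 of 238 beta bins (10.5%), against 8.65% of the bins of the genome. Of the bins outside these coding parts and upstream stretches, 24 of 78 gamma bins (30.8%) were past 2-fold for H3K9ac, 6 of 167 alpha bins (3.59%) and 7 of 140 beta bins (5.00%). With 13HH3 these were 19 of 78, 9 of 167 and 3 of 140 (genome 7.15%), and with 7G8 8 of 78, 13 of 167 and 8 of 140 (genome 7.47%).

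**Figure D4:**
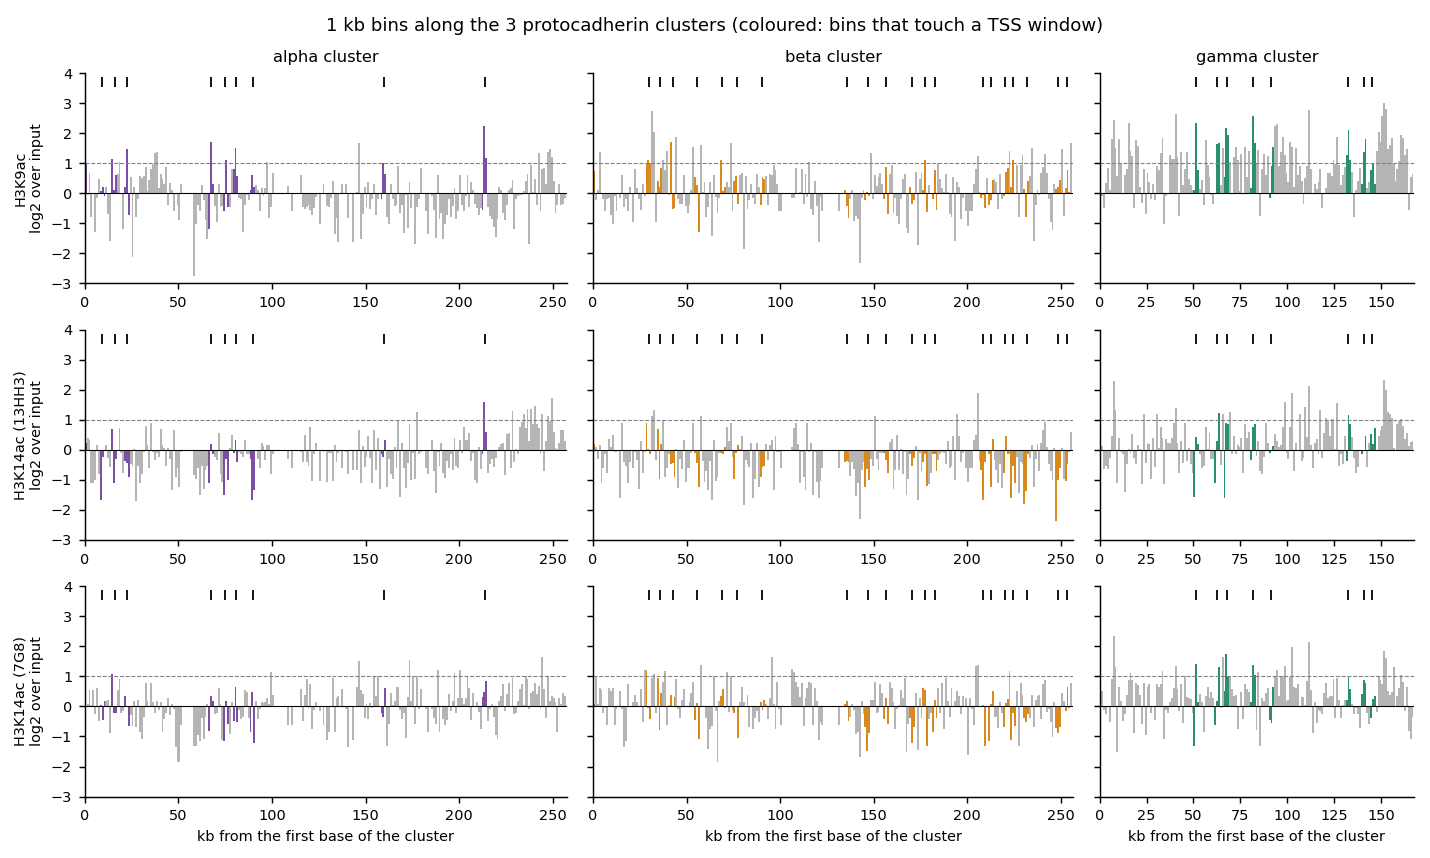
Log2 ratio over input in 1 kb bins along the alpha, beta and gamma clusters (x axis, kb from the first base of the cluster); coloured bars touch a TSS window, grey bars do not, ticks mark the TSSs, and the dashed line marks 2-fold. For H3K9ac 71 of 167 gamma bins are past 2-fold, 25 of 238 beta bins and 16 of 228 alpha bins.

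For H3K9ac the highest 2 bins outside the TSS windows, and for 13HH3 the highest 1, were past the last gamma variable exon. The 59-bp first constant exon (chr18:37984675-37984733) had 140 H3K9ac, 54 13HH3, 53 7G8 and 19 input tags within 1 kb of its start, ratios of 2.50, 1.26 and 1.10 with all 3 intervals above 0. The following bins, chr18:37984989-37985988 and chr18:37985989-37986988, lie in the intron after it, centred 6289 and 7289 bp past the Pcdhgc5 TSS. The first held 55, 31, 24 and 4 tags (H3K9ac 3.01, 13HH3 2.32, 7G8 1.85), and the second 106, 55, 46 and 11 (2.80, 1.98 and 1.60). The longest run of neighbouring bins past 2-fold for H3K9ac, 9 kb with 532 H3K9ac and 94 input tags, is at chr18:37980989-37989988 and holds both. For 13HH3 the longest run, 5 kb, lies in the same stretch. For 7G8 the longest gamma run is 2 kb and lies elsewhere, at chr18:37840989-37842988, over the last part of the reading frame of Pcdhgb1 and just past it. A 7G8 run of the same length is in the beta cluster, at chr18:37451652-37453651 (15 against 3 tags).

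Further along, the second gamma constant exon was at 1.02 (0.35 to 1.87) for H3K9ac and 0.99 (0.30 to 1.84) for 13HH3, and the third at 0.22 and 0.25 with intervals that hold 0. With 7G8 the second was at 0.55 (-0.19 to 1.41), which holds 0, and the third stood at -1.19 (-2.27 to -0.40), on 16 against 32 tags. The 3 alpha constant exons were at -0.70, -0.41 and -0.32 for H3K9ac, on 8, 13 and 14 tags, with intervals that hold 0. With 13HH3 they were at 0.37, 0.52 and 0.97, and the interval of the third (0.15 to 2.04, 35 against 15 tags) lies above 0. With 7G8 they were at 0.44, 0.34 and 0.39, and all intervals hold 0.

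The other bins that rank in the top 3 of a library, among them all 3 of 7G8, rest on 1 or 2 input tags. They are chr18:37944989-37945988 (30, 17, 19 and 2 tags, 7G8 2.14), between Pcdhga12 and Pcdhgc3, chr18:37840989-37841988 (17, 14, 16 and 1, 7G8 2.35), in the reading frame of Pcdhgb1, and chr18:37935989-37936988 (8, 10, 12 and 1, 7G8 1.99). All lie in introns of the annotated gene Pcdhgc5. In the alpha cluster the longest run past 2-fold for H3K9ac was 3 kb (chr18:37336939-37339938, 71 against 19 tags), in the intron before the last constant exon. Its middle bin held 44, 28, 17 and 12 tags. In the beta cluster it was 4 kb (chr18:37453652-37457651, 105 against 19 tags), over the Pcdhb2 gene.

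H3K9ac was higher at members with more CpGs near the TSS. Within 500 bp of the TSS the median was 38.5 CpGs for alpha, 15 for beta and 39 for gamma, and 4 members (Pcdhac1, Pcdhac2, Pcdhgc3 and Pcdhgc4) were CpG-rich (GC of at least 0.5 and observed over expected CpG of at least 0.6). Over the 40 members Spearman's rho of CpG number and H3K9ac ratio was 0.70, and within the clusters it was 0.54 (10 alpha), 0.58 (21 beta) and 0.58 (9 gamma). Over all 22367 TSSs it was 0.75. The points share 1 library, its depth and their sequence similarity, and rho is given as a description. For 13HH3 and 7G8 rho over the 40 members was 0.45 and 0.56. For H3K9ac 3 of the 4 CpG-rich members were past 2-fold, against 94.7% of CpG-rich TSSs in the genome, and 11 of the other 36, against 30.7%. With 13HH3 these were 1 of 4 (39.2%) and 1 of 36 (10.1%), and with 7G8 0 of 4 (36%) and 3 of 36 (10.2%).

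Members were set against all TSSs in the same class of CpG number. For H3K9ac the median of the alpha members was lower in each class that held one. That of the gamma members was higher under 40 CpGs and lower from 40 CpGs on. Among TSSs with 20 to 39 CpGs the median H3K9ac ratio of all 3286 TSSs was 1.16, that of the 7 alpha members 0.61, that of the 5 beta members 0.48 and that of the 3 gamma members 1.56. From 40 to 59 CpGs all 3618 TSSs had a median of 2.18, the 2 alpha members 1.11 and the 3 gamma members 1.93. From 60 to 99 CpGs all 5646 TSSs had a median of 2.39, Pcdhac2 stood at 1.67 and Pcdhgc3 at 1.85. Under 20 CpGs, where 16 of the beta genes lie, 15 of 18 members were above the median of -0.09 of all 8237 TSSs for H3K9ac, but only 2 of 18 were above that of 13HH3 and 5 of 18 above that of 7G8. The 2 gamma members in this class had a median H3K9ac ratio of 0.99. The beta genes in this class had medians of 0.17 (H3K9ac), -0.67 (13HH3) and -0.22 (7G8). The class spans 0 to 19 CpGs, so members may differ from most of its TSSs in CpG number, which was not tested.

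**Figure D5:**
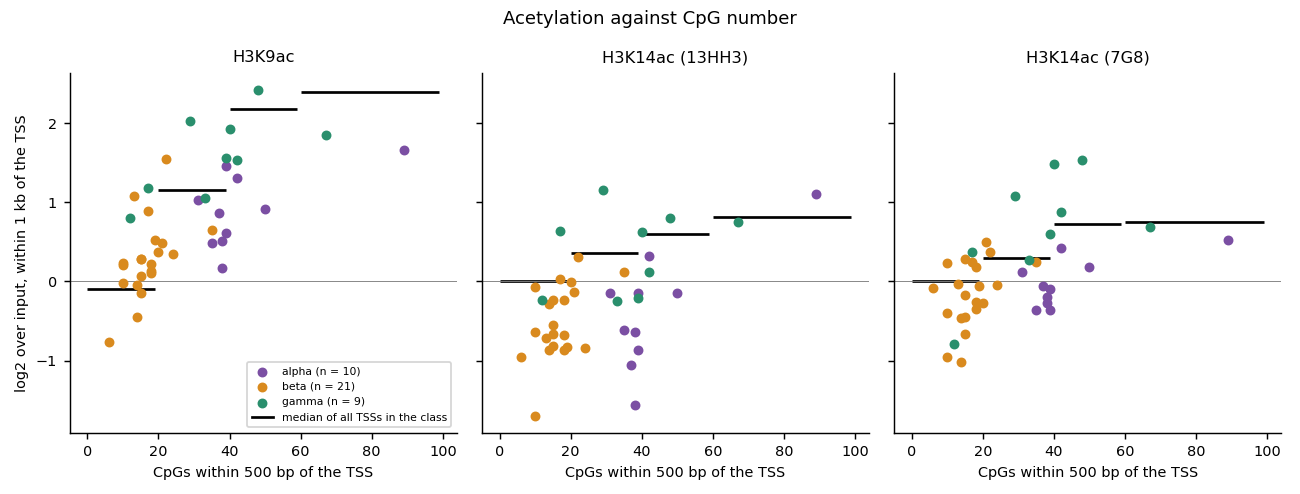
Log2 ratio over input within 1 kb of the TSS against the number of CpGs within 500 bp, 1 point per member; black lines are the medians of all protein-coding TSSs in 4 classes of CpG number. For H3K9ac most beta points lie above the line of the lowest class, and 6 of the 7 alpha points from 20 to 39 CpGs lie below the line of that class.

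Spearman's rho of chromosomal order and H3K9ac ratio was 0.33 for alpha, -0.23 for beta and -0.15 for gamma. With 13HH3 it was 0.18 for alpha, -0.36 for beta and 0.27 for gamma, and with 7G8 it was 0.60 for alpha, -0.47 for beta and -0.02 for gamma. The sign was thus positive for alpha and negative for beta in all 3 libraries, which share 1 input, and mixed for gamma. These are descriptions over 10, 21 and 9 TSSs.

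Of the 4 other protein-coding genes with a TSS inside or between the clusters, 3 were past 2-fold for H3K9ac, against 57.6% of all TSSs. Taf7, a subunit of the general factor TFIID, has its TSS between the beta and gamma clusters and held 255 H3K9ac, 51 13HH3, 75 7G8 and 10 input tags, log2 ratios of 4.17, 1.99 and 2.39. Slc25a2, a mitochondrial carrier gene beside it, was at 1.41, 0.54 and -0.14, and 3222401L13Rik at 1.96, 0.34 and 0.78. Gm10545, on the opposite strand within the alpha cluster, was at 0.57 for H3K9ac, and tags there cannot be told apart from those of the alpha exons it overlaps. Of 16 genes within 250 kb outside the clusters, 14 were past 2-fold for H3K9ac (median 2.25, 47 CpGs at the median TSS), against 57.6% of all TSSs and 94.7% of CpG-rich ones, with Hars at 3.15 and Ndufa2 at 3.14 the highest and Gm6756 at 0.16 and Diap1 at 0.51 the lowest. Some of these windows overlap and share tags, so the 16 are not separate promoters. Hars2 and Hars held 180 and 178 H3K9ac tags, Ndufa2 and Ik 177 and 176, and Hdac3 and Rell2 overlap as well.

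The median H3K9ac ratio of the 40 members was 0.57, that of all TSSs 1.38, of which 57.6% were past 2-fold. Of the 12 non-clustered protocadherins found, 4 were past 2-fold (median 0.66), from Pcdh9 at -0.47 and Pcdh15 at -0.38 to Pcdh7 at 1.92 and Pcdh17 at 2.05. Of 12 classical cadherins, 9 were past 2-fold (median 1.26), with Cdh1, the E-cadherin of epithelia and ES cells, at 2.02 and Cdh8 at 1.80 the highest and Cdh9 at -0.63 and Cdh5 at 0.34 the lowest. Hox genes, another set of clustered developmental genes, had 27 of 40 TSSs past 2-fold, among them 2 that the annotation lists under Hoxa3, and a median of 1.28. Vomeronasal receptor genes had 8 of 328 TSSs past 2-fold and a median of -0.10. The clustered protocadherins had 14 of 40, with the median of the gamma cluster at 1.56 and that of the beta cluster at 0.23.

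Of 15 genes for regulators known to act on these clusters, 13 were past 2-fold for H3K9ac (median 2.38), against 57.6% of all TSSs and 94.7% of CpG-rich ones, and the median of this list was 102 CpGs, with Ctcf, which encodes the insulator protein that binds protocadherin promoters, at 3.84 and the cohesin subunit gene Rad21 at 3.78. Stag1 at 0.31 and Dnmt3a at 0.64 were the lowest of this list. All 4 genes for kinases and adaptors that bind protocadherin tails were past 2-fold, with Wasf1 at 3.55 and Ptk2 at 2.48 the highest and Fyn at 1.61 and Ptk2b at 1.39 the lowest. With 13HH3, 5 of the 15 regulators and 1 of these 4 were past 2-fold, and with 7G8 3 and 1. Of all TSSs 22.3% were past 2-fold with 13HH3 and 21% with 7G8, and of CpG-rich ones 39.2% and 36%. For genes of these lists and for all protein-coding TSSs, the start of the transcript with the longest first coding exon was taken. It may miss the promoter that is used.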

How the data were processed

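ChIP-seq of mES cells was analysed in 4 libraries (H3K9ac, H3K14ac with 13HH3, H3K14ac with 7G8, and input). The authors mapped single-end reads of 36 bases to mm9 with ELAND, allowing 1 mismatch, and deposited 1 line per mapped read. All lines carry a deposited score of 1, which went into no calculation. No position and strand repeats in the H3K9ac, 7G8 and input files, so repeats had been removed, a step not given in the sources used here; 3.30% of the 13HH3 tags repeat and were removed here. Tags on chromosomes 1 to 19, X and Y numbered 19313142 to 23181544 in 3 libraries and 23837354 in the fourth, 7G8; at 7 to 28 input tags per TSS window, intervals of single TSSs are wide.

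Tag positions were the 5′ ends shifted by 100 bp into the fragment. Counts were made over 1 kb on both sides of a TSS (NCBIM37 genome, GENCODE M1). Ratios are log2 of tags per 10000000 over input, with a pseudocount of 1 per 10000000 for single TSSs and bins and none for pooled values. The 95% intervals are exact, from the binomial distribution of ChIP tags given ChIP plus input. With 1 library per antibody no p-value was computed. The counts were tested on simulated data. Python 3.11.15, numpy 2.4.6, scipy 1.17.1, pandas 2.3.3 and pysam 0.24.0 were used.

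The TSS was planned as 1 per annotated gene. As the annotation joins alpha and gamma exons, each variable exon with a first coding exon of at least 1000 bp was used in its place, and the planned choice is given as an alternative. Alpha and gamma exons were named by matching their distance to the cluster end with RefSeq (GRCm38.p6) gene lengths, within 1500 bp; members differ by up to 297 bp, and 14 of 19 match exactly. No coordinate was carried between builds. Unannotated exons differ by up to 1344 bp, and 2 unnamed reading frames were left out. The members, gene lists and comparisons were chosen with earlier results of these data known. Genes named are the 4 highest and 3 lowest members of each ChIP library, the C-type members and Pcdhb1, genes at the ends of each list, genes between the clusters, and the 3 strongest bins of each ChIP library outside TSS windows. Alternatives were tried for the window, tag shift, repeats, scaling, pseudocount, TSS, fold and input minimum. Expression and other published data sets were not used here.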

Additional observations from a re-analysis of the deposited data

How the results depend on the processing

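No paired analysis was possible because each antibody has 1 library and the labels give no replicate numbers. Under the alternatives 114 cluster, domain or count values stayed within counting error or 1.5 times, 41 moved by more and 1 reversed, which means a change of sign in a value whose interval did not hold 0, and of the values of single members 395 stayed and 4 moved. The alpha 13HH3, alpha 7G8 and beta 7G8 ratios at the TSSs and the 3-cluster 13HH3 domain ratio hold 0 in their intervals. They also changed sign under some alternatives. The 13HH3 ratio of the alpha domain, -0.11 (-0.21 to -0.0031), does not hold 0. It would turn positive with scaling by tags outside enriched bins, which adds 0.15, and is not the 1 reversal counted above. Using annotated genes in place of variable exons leaves 24 TSSs, with 2 alpha and 1 gamma among them. With 1 TSS per annotated gene, as planned, the order of alpha and gamma turned for H3K9ac, at 1.45 for alpha and 1.20 for gamma, alpha 13HH3 was 0.78, gamma 7G8 was 0.44, and 4, 1 and 0 TSSs were past 2-fold for H3K9ac, 13HH3 and 7G8. With the most 5′ start of the annotated gene the gamma 13HH3 ratio reversed from 0.39 to -0.27, gamma H3K9ac was 1.10, below alpha at 1.19, gamma 7G8 0.28 and alpha 7G8 -0.25, and 4, 0 and 0 TSSs were past 2-fold for H3K9ac, 13HH3 and 7G8. With windows of 500 bp, H3K9ac was 1.73 for alpha, 0.67 for beta and 2.31 for gamma, 13HH3 was 0.31 for alpha and 0.72 for gamma, and beta 7G8 was 0.13. With 2 kb, H3K9ac was 0.55 for alpha and 1.29 for gamma, and 9, 1 and 1 TSSs were past 2-fold. Scaling by tags outside enriched bins gave H3K9ac ratios of 1.43 for alpha, 0.74 for beta and 2.03 for gamma, and domain ratios over the 3 clusters of 0.97 for H3K9ac, 0.14 for 13HH3 and 0.32 for 7G8; scaling by the tags of chromosome 18 gave domain ratios of -0.19 for 13HH3 and 0.0097 for 7G8 and left 0 TSSs past 2-fold with 13HH3. A pseudocount of 3 left 1 TSS with 13HH3, and a minimum of 10 input tags left 1 with 13HH3 and 1 with 7G8. A threshold of 1.5-fold gave 6 with 13HH3 and 6 with 7G8. With the unannotated exons, an alternative chosen after seeing the data, 28, 4 and 7 TSSs were past 2-fold. These changes follow from the windows, scalings and TSSs used; no other cause was tested. Depth limits single TSSs, where 23 of 40 H3K9ac intervals hold 0, and 35 of 40 with 13HH3 and with 7G8.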

Other observations

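The 13 gamma exons that the annotation lacks were all past 2-fold for H3K9ac within 1 kb of their start codon, with a pooled log2 ratio of 1.95 (1.72 to 2.17), 0.56 (0.31 to 0.82) with 13HH3 and 0.78 (0.54 to 1.03) with 7G8. Of all protein-coding TSSs 57.6% were past 2-fold for H3K9ac. With 13HH3, 2 of the 13 were past 2-fold (22.3% of all TSSs), and with 7G8 4 (21%). Pcdhga1, the first exon of the gamma cluster, had 150 H3K9ac, 50 13HH3, 58 7G8 and 17 input tags and ratios of 2.74, 1.30 and 1.37, above any of the 40 annotated members for H3K9ac. Pcdhga7, with 100, 41, 46 and 14 tags, had ratios of 2.42, 1.27 and 1.30. The lowest H3K9ac ratio among the 13 was 1.23, at Pcdhgb7 (37 against 12 tags). These exons were named here after their values were seen.

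The 4 alpha exons that the annotation lacks (Pcdha5, Pcdha6, Pcdha7 and Pcdha8) had a pooled H3K9ac ratio of 0.72 (0.24 to 1.22), with Pcdha6 past 2-fold at 1.08, and were below input with 13HH3 (-1.06, -1.76 to -0.38) and 7G8 (-0.74, -1.36 to -0.12). Pcdhb20, a pseudogene in the annotation, had 19, 13, 15 and 10 tags and an H3K9ac ratio of 0.57. The names of Pcdha6 and Pcdhgb8 rest on length matches that differ by 1344 and 1306 bp.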
